A study of Mus musculus with 11 samples.

Results

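The genes described here are 39 known targets of the transcription factor p53 that act in cell cycle arrest, cell death signalling, DNA repair and metabolism and were taken as a named list. All 39 were found among the 27179 genes of the count files, and 35 of them had enough reads to be tested. RNA came from C57BL/6 mouse embryos at embryonic day 9.5, from brain tissue down to a cut behind the otic vesicle. There were 3 groups: 4 affected females with the genotype p53-/- Bim+/-, 4 control males with the same p53-/- Bim+/- genotype, and 3 control females that were p53+/+ Bim+/-. Every embryo therefore carried 1 mutant copy of Bim, a pro-apoptotic BH3-only gene, and no group was wild type for it. How the affected females differ in form from unaffected ones is not told in the labels. In each comparison with the control females either the sex or the affected state differs as well as the p53 genotype, and these cannot be told apart. The labels give no litter, dissection day or batch, and they do not say whether each library is a separate animal, so p-values measure the spread between these samples.

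p53 is kept scarce in unstressed cells by Mdm2-driven degradation. When DNA is damaged or a nucleolar or oncogenic stress is sensed, p53 accumulates as a tetramer that binds pairs of a short half-site near its targets and raises their transcription. Some targets halt the cell cycle (Cdkn1a is the best known), some feed apoptosis, and others supply repair enzymes, nucleotides or antioxidant capacity. Mouse embryos can develop without p53, but some female embryos that lack it fail to close the cranial neural tube.

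The group split by role into 10 genes of arrest and checkpoint control, 12 of cell death and survival, 5 of DNA repair and nucleotide supply, 8 of metabolism, redox and nutrient sensing, and 4 others. Levels are given as CPM, which are counts scaled to a common library size and corrected for library composition. A gene was called changed when its Benjamini-Hochberg adjusted p, from edgeR's quasi-likelihood test across 14542 genes, was under 0.05. Between all 8 p53-/- embryos, with affected females and control males weighted equally, and the 3 p53+/+ embryos, 5 of 35 tested members fell (Cdkn1a, Phlda3, Plk3, Psrc1 and Trp53inp1), against a background of 2.39% of all tested genes. None rose by edgeR, where the background was 0.77%. Without adjustment 12 members were lower and 2 higher at p under 0.05. The share of all tested genes at that unadjusted threshold was not counted, here or for the roles and comparisons below. Nothing is therefore read from such counts about the members. DESeq2 called 7 lower and 0 higher, against 4.83% and 2.22% of all genes, and limma voom called 10 lower and 2 higher, against 21.2% and 19.2%. The median log2 fold change was -0.16 over the tested members and 0.00 over all tested genes.

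Library totals ran from 8211942 to 11218682 counts. Trp53 itself does not check the labels, because its whole-gene level was 105 to 139 CPM over all 11 embryos with the genotypes mixed in that range. The related targets Ccng1 and Eda2r did separate the genotypes, with Ccng1 at 21.8 to 33.5 CPM in the 8 p53-/- embryos and 74.7 to 93.8 CPM in the 3 p53+/+ embryos. Both genes were listed with earlier results of these data known, so their separation is not an independent check of the labels. Neural progenitor markers were present in every library, with a summed level of 1327 to 1706 CPM, as the labelled tissue would have. Control female 1 differed from control females 2 and 3: its heat shock gene Hspa1b was at 96.3 CPM against 0.53 and 0.834 CPM in the others, its immediate early and heat shock genes summed to 751.3 CPM against 398.7 and 384.3 CPM, its early neuron markers to 274.7 CPM against 479.6 and 531.2 CPM, and its primitive erythroid markers to 569.6 CPM against 4461 and 4239 CPM. Control male 4 had the next highest heat shock sum, 707.5 CPM. Several values below are also given without one or both of these libraries.

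**Figure D1:**
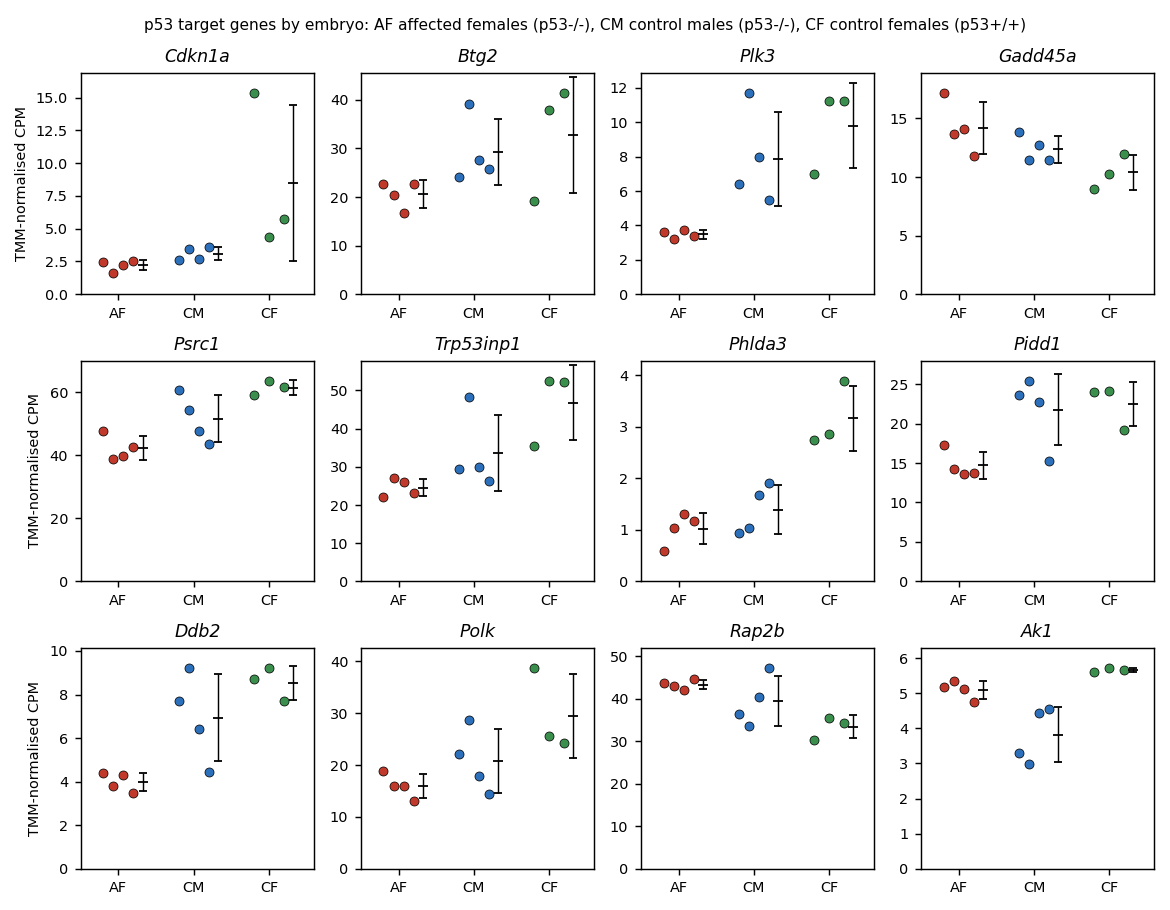
CPM (y axis) of the 11 members called in at least 1 comparison and of Ak1, with 1 point per embryo in the 4 affected females (AF), 4 control males (CM) and 3 control females (CF), and the group mean with bars of 1 SD beside them. In Cdkn1a, Phlda3 and Ak1 all 3 p53+/+ embryos lie above all 8 p53-/- embryos, and in Plk3 and Ddb2 all 4 affected females lie below every other embryo.

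The arrest and checkpoint genes were led by Cdkn1a (Entrez Gene 12575, chr17:29090979-29100722 in GRCm38), which encodes the cyclin-dependent kinase inhibitor p21. Its RefSeq promoter is shown because it holds exact p53 half-sites and because Cdkn1a was called in p53-/- embryos. The stretch covers the 250 bases before the first annotated start, on the plus strand, chr17:29090729-29090978, and the second annotated start lies 2790 bases downstream. Capitals mark half-site matches; the first and second are exact, and the last, which adjoins the second, has 1 mismatch.

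Cdkn1a: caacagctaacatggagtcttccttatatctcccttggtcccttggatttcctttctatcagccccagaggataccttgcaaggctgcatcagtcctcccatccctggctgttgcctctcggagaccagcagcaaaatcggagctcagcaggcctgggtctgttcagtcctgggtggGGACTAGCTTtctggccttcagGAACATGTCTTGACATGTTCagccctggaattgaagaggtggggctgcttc

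In affected females Cdkn1a stood at 2.49, 1.64, 2.24 and 2.52 CPM, in control males at 2.63, 3.41, 2.66 and 3.64 CPM, and in control females at 15.3, 4.35 and 5.75 CPM. All 3 p53+/+ embryos were above all 8 p53-/- embryos, which held for 3 members (Cdkn1a, Phlda3 and Ak1) and for 1.37% of all tested genes. No member had all 3 below all 8 (1.31% of genes). The affected females were also all below the control males. These are low levels, from 16 to 40 counts in the p53-/- embryos and 41 to 123 counts in the p53+/+ embryos. Cdkn1a fell by 1.66 on the log2 scale (SE 0.30) in p53-/- embryos, with an edgeR adjusted p of 0.0163. Control female 1 was 3.04 times the mean of the other control females, and without it the log2 fold change was -0.95 (SE 0.21, edgeR adjusted p = 0.0266). Against the control females alone, Cdkn1a fell in affected females (log2 fold change -1.90, SE 0.36, edgeR adjusted p = 0.00376), and was at -1.18 without control female 1. In control males the log2 fold change was -1.43 (SE 0.34, edgeR adjusted p = 0.257), and -0.71 without control female 1. Affected females and control males differed by -0.47 (SE 0.37, edgeR adjusted p = 0.363).

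Plk3 (Entrez Gene 12795), a polo-like kinase of the stress response, followed another order. It was at 3.59, 3.18, 3.73 and 3.39 CPM in affected females, 6.39, 11.7, 7.99 and 5.45 CPM in control males, and 6.98, 11.2 and 11.2 CPM in control females. The 4 affected females were below all other embryos, while the control males and control females overlapped. Plk3 fell across the p53-/- groups (log2 fold change -0.92, SE 0.21, edgeR adjusted p = 0.036), a call lost without any 1 of the affected females, control male 3, control female 2 or control female 3. Against control females the log2 fold change was -1.50 in affected females (SE 0.25, edgeR adjusted p = 0.0026) and -0.33 in control males (edgeR adjusted p = 0.85).

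Psrc1 (Entrez Gene 56742), a microtubule-associated protein of the mitotic spindle, was at 47.8, 38.9, 39.9 and 42.7 CPM in affected females, 60.7, 54.3, 47.7 and 43.7 CPM in control males and 59.1, 63.7 and 61.7 CPM in control females. The affected females were all below the control females, and control male 1 was inside the control female range. Psrc1 fell by 0.40 on the log2 scale in p53-/- embryos (SE 0.10, edgeR adjusted p = 0.0429) and by 0.54 in affected females against control females (SE 0.11, edgeR adjusted p = 0.00496). The first call was lost without affected female 2, 3 or 4, control male 3, or control female 2 or 3. Around its first annotated start lies a cell cycle homology motif (TTTGAA or TTCGAA, searched on both strands), an element found in genes that peak in mitosis. It is shown, in capitals, as the motif found in a called member, at chr3:108383796-108383825 on the plus strand, beginning at base 5 of the transcript.

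Psrc1: gagcctaagaaaTTCGAAcgaagctccgcc

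Btg2 (Entrez Gene 12227), an antiproliferative gene that marks neural progenitors about to form neurons, was at 22.7, 20.3, 16.8 and 22.8 CPM in affected females, 24.1, 39.2, 27.7 and 25.8 CPM in control males and 19.2, 37.9 and 41.3 CPM in control females. Control female 1 was the low value here, inside the affected female range. Btg2 fell in affected females against control females (log2 fold change -0.68, SE 0.22, edgeR adjusted p = 0.0329), a call lost without affected female 2 or 3 or control female 2 or 3. Without control female 1 it was -0.94 (edgeR adjusted p = 0.00259). Gadd45a (Entrez Gene 13197), a growth arrest and DNA damage gene, rose in the same comparison, at 17.1, 13.7, 14.1 and 11.8 CPM in affected females, 13.8, 11.5, 12.7 and 11.5 CPM in control males and 8.97, 10.3 and 12.0 CPM in control females. The groups overlapped, and the log2 fold change of 0.44 (SE 0.15, edgeR adjusted p = 0.0444) kept its call in 4 of the 11 fits that left out 1 library, those without affected female 4 or control male 1, 2 or 4. Without control female 1 it was 0.35 (edgeR adjusted p = 0.114).

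The other 5 arrest genes were not called by edgeR in any comparison. Voom called Gtse1 lower in p53-/- embryos and in control males against control females, against 21.2% and 6.0% of all tested genes. It called Fbxw7, Gtse1 and Zmat3 higher in affected females than in control males, against 21.6%. Zmat3, an RNA-binding protein, was at 95.2 CPM in control female 1, against 63.5 and 61.1 CPM in the other control females and 45.1 to 69.7 CPM in p53-/- embryos. Plk2, a polo-like kinase, was likewise highest in control female 1, at 54.2 CPM against 30.3 to 43.1 CPM in all other embryos. Gtse1, a mitotic protein that restrains p53, was at 33.2 to 38.9 CPM in control males and 39.8 to 45.2 CPM in control females without overlap. Ckap2, a spindle protein, and Fbxw7, a ubiquitin ligase substrate receptor, had log2 fold changes of -0.11 and 0.08 in p53-/- embryos. The arrest genes had a median log2 fold change of -0.28 in that comparison, with 3 of 10 lower, against 2.39% of all tested genes.

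**Figure D2:**
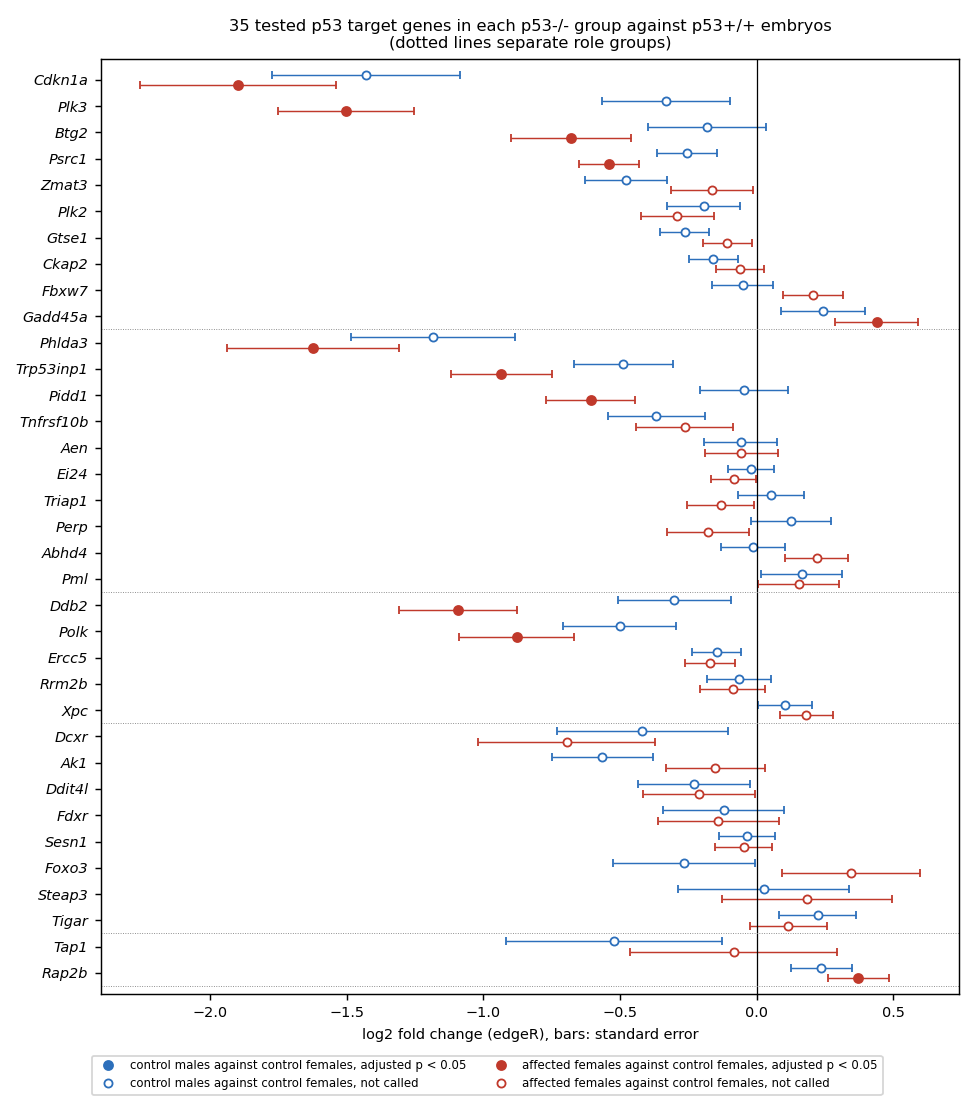
Log2 fold change (x axis; bars are 1 SE) of the 35 tested members in affected females and in control males, each against the same 3 control females, with filled points where the edgeR adjusted p was under 0.05. Filled points are found for affected females only, 9 below 0 and 2 above, and Cdkn1a and Phlda3 have the lowest values in control males, -1.43 and -1.19.

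Cell death and survival genes gave 2 falls among 10 tested members, against 2.39% of all tested genes. Phlda3 (Entrez Gene 27280), which competes with the survival kinase Akt for membrane lipids, was at 0.598, 1.03, 1.30 and 1.16 CPM in affected females, 0.940, 1.03, 1.68 and 1.91 CPM in control males and 2.74, 2.86 and 3.89 CPM in control females. All 3 p53+/+ embryos were above all 8 p53-/- embryos, and here control female 1 was the lowest of its group. These rest on 6 to 21 counts in p53-/- embryos and 22 to 42 counts in p53+/+ embryos. Phlda3 fell by 1.40 on the log2 scale (SE 0.26, edgeR adjusted p = 0.0204), and by 1.49 without control female 1. The call was lost without control female 2 or control female 3. The log2 fold changes were -1.62 in affected females (SE 0.31, edgeR adjusted p = 0.00411) and -1.19 in control males (SE 0.30, edgeR adjusted p = 0.343).

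Trp53inp1 (Entrez Gene 60599), a nuclear protein that promotes p53-dependent death and autophagy, was at 22.0, 27.0, 25.9 and 23.2 CPM in affected females, 29.5, 48.3, 30.1 and 26.3 CPM in control males and 35.5, 52.6 and 52.3 CPM in control females. Control male 2 lay within the control female range, and the affected females were all below that range. Trp53inp1 fell in p53-/- embryos (log2 fold change -0.71, SE 0.16, edgeR adjusted p = 0.0357), a call lost without affected female 1, 3 or 4, control male 3, or control female 2 or 3. It also fell in affected females against control females (log2 fold change -0.93, SE 0.18, edgeR adjusted p = 0.00437). Pidd1 (Entrez Gene 57913), a death domain protein that assembles the caspase-2 platform, was at 17.2, 14.3, 13.6 and 13.8 CPM in affected females, 23.6, 25.4, 22.7 and 15.3 CPM in control males and 24.1, 24.2 and 19.2 CPM in control females. The affected females were all below the control females, and control male 4 fell within the affected female range. Pidd1 fell in affected females against control females (log2 fold change -0.61, SE 0.16, edgeR adjusted p = 0.0156), a call lost without control female 2.

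The other 7 tested members of this role were not called by edgeR. Voom called Triap1 lower in affected females than in control males, against 22.4% of all tested genes. Ei24, an endoplasmic reticulum protein, was at 148 to 178 CPM across all embryos. Aen, an apoptosis-enhancing nuclease, ranged from 24.7 to 37.9 CPM, Triap1, a mitochondrial survival factor, from 21.8 to 31.0 CPM, and Pml, the nuclear body scaffold, from 17.2 to 30.6 CPM. Perp, a desmosomal tetraspan protein, ranged from 9.13 to 15.2 CPM, the death receptor Tnfrsf10b from 7.92 to 14.6 CPM, and Abhd4 from 19.8 to 28.7 CPM. In these 7 genes the log2 fold change in p53-/- embryos ran from -0.32 in Tnfrsf10b to 0.16 in Pml. The role's median was -0.05.

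Of the 5 DNA repair genes edgeR called 0 across the p53-/- groups, with 2, Polk and Ddb2, lower at an unadjusted p under 0.05, and both DESeq2 and voom called these 2. Polk (Entrez Gene 27015), a translesion DNA polymerase, was at 18.8, 16.0, 15.9 and 13.1 CPM in affected females, 22.1, 28.6, 18.0 and 14.4 CPM in control males and 38.8, 25.5 and 24.2 CPM in control females. Only control male 2 among the p53-/- embryos reached the control female range. The log2 fold change was -0.69 (SE 0.18, edgeR adjusted p = 0.0506). Ddb2 (Entrez Gene 107986), which recognises ultraviolet lesions for nucleotide excision repair, was at 4.39, 3.80, 4.29 and 3.49 CPM in affected females, 7.71, 9.20, 6.41 and 4.45 CPM in control males and 8.72, 9.22 and 7.69 CPM in control females. The affected females were below every other embryo. The log2 fold change of Ddb2 was -0.70 in p53-/- embryos (SE 0.18, edgeR adjusted p = 0.0507). Both fell in affected females against control females, Polk with a log2 fold change of -0.88 (SE 0.21, edgeR adjusted p = 0.00971; -0.64 without control female 1) and Ddb2 with -1.09 (SE 0.22, edgeR adjusted p = 0.00444). The remaining repair genes were close to level: Rrm2b, a ribonucleotide reductase subunit, had a log2 fold change of -0.08, Xpc, a lesion sensor, 0.14, and Ercc5, an excision nuclease, -0.16.

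Of the 8 metabolic genes edgeR called 0 in p53-/- embryos, with Ak1 lower at an unadjusted p under 0.05, and DESeq2 and voom called 0. Ak1, an adenylate kinase, was at 5.61, 5.72 and 5.65 CPM in control females, above every p53-/- embryo, with 5.18, 5.34, 5.13 and 4.75 CPM in affected females and 3.29, 3.00, 4.44 and 4.54 CPM in control males. Its order thus put affected females between the other groups without overlap. The log2 fold change of Ak1 in p53-/- embryos was -0.36 (SE 0.16, edgeR adjusted p = 0.179). Dcxr, a carbonyl reductase, had the lowest fold change of the members called in no comparison, -0.56 (edgeR adjusted p = 0.221), at 0.620 to 1.87 CPM. The transcription factor Foxo3 was at 3.65 to 8.85 CPM with a log2 fold change of 0.04. Sesn1, which restrains mTORC1 under leucine shortage, had a log2 fold change of -0.04, Tigar, a fructose bisphosphatase, 0.17, Fdxr, a mitochondrial reductase, -0.13, Steap3, a ferrireductase, 0.10, and Ddit4l, an mTORC1 inhibitor, -0.22.

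Of the 4 other members 2 were tested. Rap2b (Entrez Gene 74012), a small GTPase, was at 43.8, 42.9, 42.1 and 44.6 CPM in affected females, 36.4, 33.7, 40.3 and 47.3 CPM in control males and 30.4, 35.5 and 34.4 CPM in control females. The affected females were all above the control females. Rap2b rose in affected females against control females (log2 fold change 0.37, SE 0.11, edgeR adjusted p = 0.0239), a call lost without affected female 3 or 4 or control female 1 or 3, with 0.31 without control female 1 (edgeR adjusted p = 0.0614). Tap1, an antigen peptide transporter, ranged from 0.678 to 1.87 CPM and was not called. Of all 39 members, 4 had too few counts to test: the death receptor Fas had 0 to 7 counts per library, the autophagy gene Dram1 2 to 8 counts, the cytokine Lif 0 to 6 counts, and the stress cytokine Gdf15 had no count in any library. Gdf15 was therefore not detectable at this depth, where a count of 0 allows up to 3 counts per library by counting error alone. The highest counts of both Fas and Lif, 7 and 6, were those of control female 1.

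**Figure D3:**
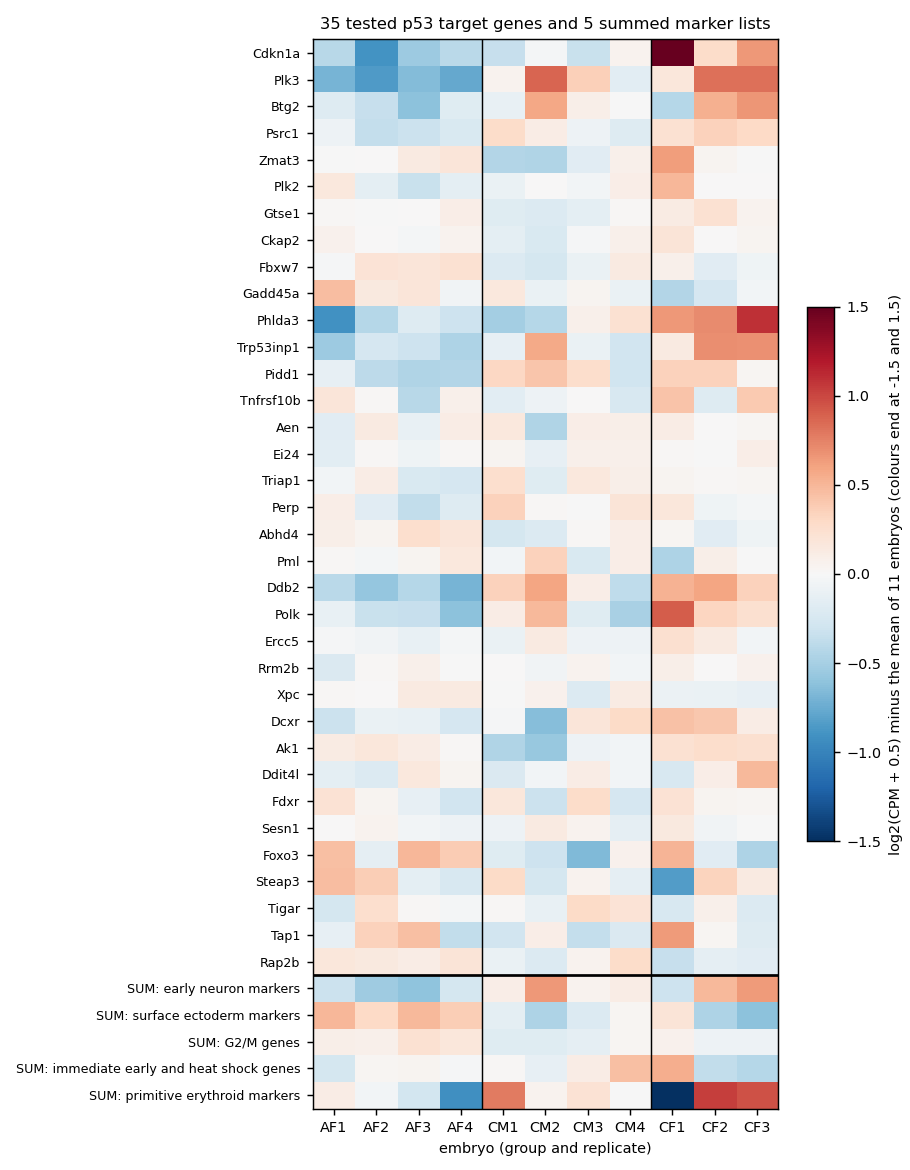
Heat map of the 35 tested members and 5 summed marker lists (rows) by embryo (columns), coloured by log2(CPM + 0.5) minus its mean over the 11 embryos, with colours that end at -1.5 and 1.5. Control female 1 differs from control females 2 and 3 in several genes, being the highest of the 3 in Cdkn1a, Polk, Zmat3 and Plk2 and the lowest in Btg2, Plk3 and Trp53inp1.

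Control female 1 was the highest of the control females in 19 of the 35 tested members and the lowest in 12. How often it was highest or lowest over all tested genes was not counted, so this is not read as a trait of the members. Its level relative to the mean of the others was 3.04-fold in Cdkn1a, 1.56-fold in Polk, 1.53-fold in Zmat3 and 1.41-fold in Plk2, and it was 0.484 in Btg2, 0.622 in Plk3 and 0.677 in Trp53inp1. The part of its heat shock values in these differences was not tested. Without control female 1 the count of members that fell in p53-/- embryos was 6, Btg2 joining the 5, against 3.28% of all genes. Without control female 1 and control male 4 together it was 7, with Ddb2 as well, against 5.5%. It dropped to 1 without control female 2 and to 1 without control female 3, where 52 and 45 of all tested genes were called in either direction.

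Against control females alone, the affected females had 9 members lower (Btg2, Cdkn1a, Ddb2, Phlda3, Pidd1, Plk3, Polk, Psrc1 and Trp53inp1) by edgeR, where 15.0% of all tested genes were lower, and 2 higher, Gadd45a and Rap2b, where 13.0% were higher. The control males had 0 members lower and 0 higher by edgeR, with backgrounds of 0.0963% and 0.0481%. In that comparison 8 members were lower and 1 higher at an unadjusted p under 0.05, a threshold at which all tested genes were not counted. DESeq2 called Cdkn1a lower, against 0.199% of all genes, and voom called 8 lower, against 6.0%. All 4 affected females were below all 3 control females in 10 members, where 20.0% of all tested genes were, and above them in Abhd4, Rap2b and Xpc, where 20.2% were. All 4 control males were below all 3 control females in Ak1, Cdkn1a, Gtse1 and Phlda3, where 2.54% were. The 2 comparisons share the same 3 control females. A call in one and not in the other does not show a difference, which needs the test between affected females and control males.

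That direct comparison gave 3 members lower in affected females, Plk3, Ddb2 and Pidd1, against a background of 10.7%, and 0 higher by edgeR, against 9.51%. At an unadjusted p under 0.05 there were 7 lower and 5 higher (Abhd4, Ak1, Fbxw7, Foxo3 and Zmat3). All tested genes were not counted at that threshold, so these 7 and 5 cannot be set against a background. DESeq2 called 3 lower and 0 higher, against 11.5% and 11.4% of all genes, and voom called 7 lower and 5 higher, against 22.4% and 21.6%. The members' share lay under that of all genes in both directions with edgeR, DESeq2 and voom. Plk3 fell with a log2 fold change of -1.17 (SE 0.24, edgeR adjusted p = 0.0102), Ddb2 with -0.79 (SE 0.20, edgeR adjusted p = 0.0199) and Pidd1 with -0.56 (SE 0.15, edgeR adjusted p = 0.0225). The lowest control female was reached or passed by 2 of 4 control males in Plk3 and Ddb2 and by 3 of 4 in Pidd1, and by no affected female. For Ddb2 and Pidd1 the call was lost without affected female 3, affected female 4, control male 1 or control male 2, and for Pidd1 also without control male 3. Without control male 4 the log2 fold changes were -1.31 for Plk3, -0.96 for Ddb2 and -0.70 for Pidd1 (edgeR adjusted p = 0.000987, 0.00127 and 0.00106). All 4 affected females were below all 4 control males in 4 members, Btg2, Cdkn1a, Ddb2 and Plk3, where 9.43% of all genes behaved so, and above them in Ak1 alone, where 10.1% did. Sex and affected state both differ here and cannot be told apart. Without control female 1 and control male 4 the members lower numbered 7 and those higher 6, against 21.0% and 19.9% of all genes.

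The mitochondrial share, cell cycle genes and tissue markers also differed between these samples. Mitochondrial genes held 1.31% to 1.69% of counts in affected females and 2.06% to 4.99% in all other embryos. By edgeR 4 of 20 G2/M genes were higher in affected females than in control females and 7 than in control males, with none lower. The shares of all tested genes were 13.0% and 9.51% higher, and 15.0% and 10.7% lower. Early neuron markers were low in the affected females and in control female 1. Their summed level was 272.5, 236.1, 224.1 and 284.7 CPM in affected females, 366.1, 535.5, 354.7 and 369.7 CPM in control males and 274.7, 479.6 and 531.2 CPM in control females. By edgeR 13 of 19 tested neuron markers were lower in affected females than in control females, and 13 than in control males. All tested genes gave 15.0% and 10.7% lower there. Control male 2, which had the highest neuron sum, was the highest control male in 10 of the 35 tested members. Of these 10, Btg2, Plk3, Trp53inp1 and Pml were also lowest among the control females in control female 1, the control female with the lowest neuron sum. Cdkn1a did not follow this order, being highest of all in control female 1. The same counts were not made over all tested genes, so nothing is read from them about the members. Surface ectoderm markers went the other way, with sums of 345.2 to 395.1 CPM in affected females, 203.2 to 286.2 CPM in control males, and 320.8, 203.4 and 181.9 CPM in control females. By edgeR 10 of 12 such markers were higher in affected females than in control females, against 13.0% of all tested genes. The part of these differences in the members' values was not tested, and in bulk tissue fewer cells of a type and less RNA per cell cannot be told apart. Macrophage markers summed to 2.80 to 15.8 CPM, with C1qa at 0 in every library.

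**Figure D4:**
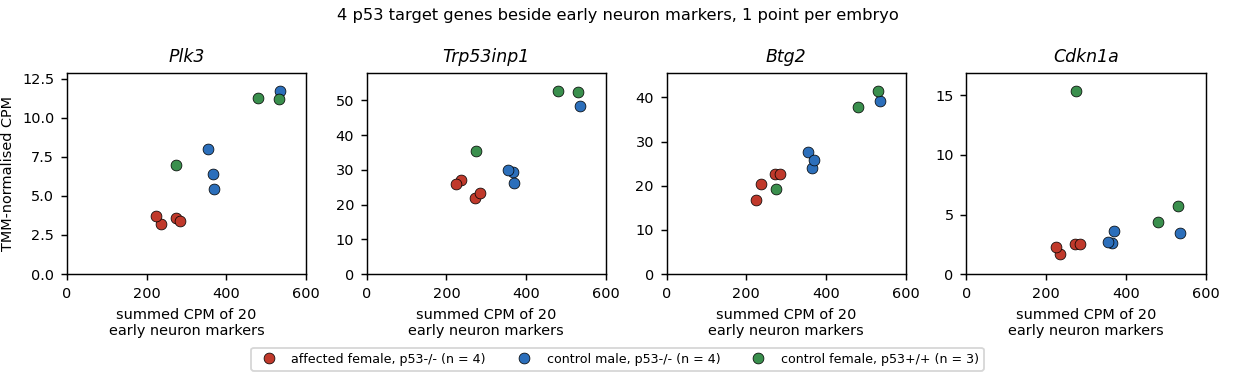
CPM of Plk3, Trp53inp1, Btg2 and Cdkn1a in each embryo (y axes) against the summed CPM of 20 early neuron markers (x axis), coloured by group. The affected females sit at 224.1 to 284.7 CPM of neuron markers beside control female 1 at 274.7 CPM, and the remaining embryos at 354.7 CPM and above.

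Of 25 other p53 pathway genes 24 were tested, and 5 fell in p53-/- embryos by edgeR, against 2.39% of all tested genes. They were Ccng1 (log2 fold change -1.71, SE 0.09, edgeR adjusted p = 9.07e-09), Eda2r (-3.29, SE 0.26), Slc19a2 (-0.83, SE 0.12) and Zfp365 (-0.60, SE 0.14) with the smallest adjusted p, and Mdm4. Against control females, Zfp365 was at -0.97 in control males and -0.22 in affected females, where it was not called. Mdm4 was at -0.85 in affected females and -0.19 in control males, where it was not called. Affected females against control males gave 0.75 for Zfp365 and -0.67 for Mdm4 (edgeR adjusted p = 0.0106 and 0.0107). Eda2r, a receptor of the tumour necrosis factor family, was at 0.822 to 2.14 CPM in p53-/- embryos and 23.1, 11.4 and 9.92 CPM in control females. In control males against control females, where no member passed by edgeR, 3 of these 24 genes were lower, Ccng1, Eda2r and Zfp365. The share of all tested genes lower there was 0.0963%. The list was chosen with earlier results of these data known, so nothing is read from its counts beside those of the members.

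Known p53 targets are recognised partly by p53 binding near them, so p53 half-sites in their promoters are not independent of how the group was chosen, and nothing is read from their share. RefSeq windows of GRCm38.p6, from 250 bases before to 50 after each start, were on hand for 32 members (48 windows). An exact p53 half-site, searched as the consensus named for p53, was present in 13 of the 48 windows, from 12 members, and in 8.36% of all 32851 windows. A pair of half-sites up to 13 bases apart with at most 1 mismatch in all was found in Cdkn1a, Gtse1 and Pml, and in 0.627% of all windows. The Gtse1 and Pml sites, picked for display after their values were seen, are printed for comparison with Cdkn1a, with half-site letters in capitals. They lie at chr15:85859945-85859964 on the plus strand and at chr9:58249921-58249947 on the minus strand.

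Gtse1: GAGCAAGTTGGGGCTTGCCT

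Pml: AGCCATGCCCgcatgccGGGCTTGTTT

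By edgeR neither Gtse1 nor Pml was called. Voom called Gtse1 lower in p53-/- embryos, where it called 21.2% of all tested genes lower. Of the 12 members with an exact half-site 1, Cdkn1a, fell in p53-/- embryos by edgeR, and of the 20 with a window but no exact half-site 3 did. Trp53inp1, which also fell, had no window. The share of all tested genes that fell was 2.39%, and counts this small do not show whether a half-site goes with a fall. A match is a description of letters, and these windows leave out distal sites and first introns. The cell cycle homology motif was in the windows of 7 members, Psrc1 among them, and in 19.2% of all windows.

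**Figure D5:**
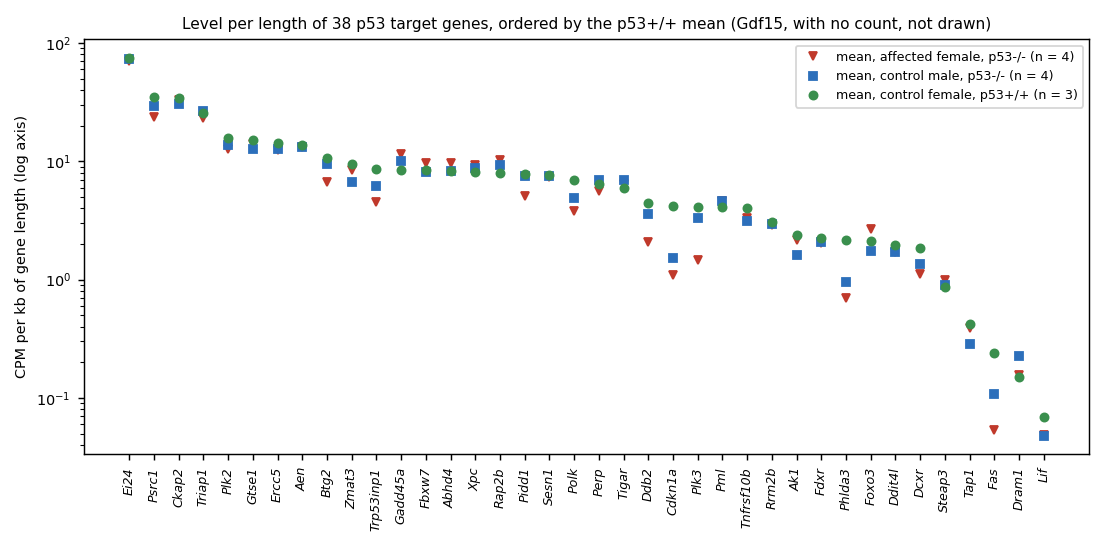
Group means of 38 members in CPM per kilobase of gene length (log axis), ordered by the control female mean; Gdf15 has no count and is not drawn. The order in control females runs from Ei24 at 74.3 to Lif at 0.0693, with Cdkn1a at 4.18.

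Per kilobase of gene length, the members spanned a wide range in p53+/+ brain. Ei24 led at 74.3 CPM per kb ± 2.87 (SD, n = 3), followed by Psrc1 at 34.7 ± 1.31 and Ckap2 at 34.4 ± 2.34, which did not differ beyond their spread. Cdkn1a ranked 23 of 39, at 4.18 CPM per kb ± 2.95, beside Ddb2 at 4.46, Plk3 at 4.15 and Pml at 4.13, and its SD covers these neighbours. Without control female 1 its mean was 2.49 CPM per kb, rank 27. Phlda3 ranked 30, at 2.16 ± 0.432. The called members thus lay across the range from Psrc1 to Phlda3. Counting without strand could add reads of a partner to a member, and the sources used here do not name the strand setting. On the opposite strand 3702 bases of Rap2b's exons overlap another gene, as do 652 of Ddb2's (Acp2), 337 of Gadd45a's, 273 of Cdkn1a's and 84 of Plk3's (Tctex1d4), so these values are less certain than those of Phlda3, Psrc1, Trp53inp1, Polk, Pidd1 and Btg2, for which no exon overlap is annotated. The overlaps were taken from GENCODE exons, which are longer than the counted gene lengths. Rap2b had 6793 against 4197 bases, Ddb2 2736 against 1918 and Cdkn1a 3553 against 2026. Some overlapping bases may therefore lie outside what was counted.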

How the data were processed

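The authors deposited raw read counts per gene for each library, made with featureCounts on mm10 (GRCm38), per the submitters' processing notes; the sources used here do not name the aligner, annotation release or strand setting. The 11 files share 27179 Entrez genes, of which 25275 were named through the RefSeq GRCm38.p6 table, and every file was mapped to its group by its title. The members and the gene lists were chosen with earlier results of these data known. Counts were filtered with edgeR 4.0.16 filterByExpr (about 10 counts in at least 3 libraries), which kept 14542 genes and 35 of 39 members, and no member passed through the control females alone. TMM scaling and 1 quasi-likelihood fit over all 11 libraries followed (R 4.3.3, biological coefficient of variation 11.9%), with p-values adjusted by Benjamini-Hochberg over all tested genes. CPM use the TMM-scaled size over tested genes. Alternatives were RLE scaling, no filter, a mean CPM filter of 1, DESeq2 1.42.0, limma 3.58.1 voom with sample weights, a replicate block, only the groups compared, and leaving out libraries. Libraries of a group differed beyond sampling noise (chi-square per degree of freedom 2.73 to 31.6), so none was counted as a duplicate. Named genes were Cdkn1a, each member called in any comparison, members that the sample values turn on, and up to 4 called genes of another list. Promoters and proximal sequences are from RefSeq, and exon overlaps from GENCODE vM21. With 3 or 4 embryos a group and 16 to 123 counts for Cdkn1a, small differences in low members were not detectable.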

Additional observations from a re-analysis of the deposited data

Results flagged for a closer look

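Control male 2 stood apart from the other control males in 2 members that were not called. Aen was at 24.7 CPM in control male 2 and at 36.1 to 37.9 CPM in the other control males, and Ercc5 at 57.3 CPM against 48.8 to 49.5 CPM. With 70 groups examined, chance alone flags about 1 in 20, so 2 is below that number. Plk3, Ddb2 and Pidd1 differed between the p53-/- groups in their log2 fold change against control females, affected females minus control males, by -1.17, -0.79 and -0.56, with edgeR adjusted p of 0.0102, 0.0199 and 0.0225. These 3 of 35 tested members compare with 10.7% of all tested genes that were lower in that comparison. For Plk3 and Ddb2 all 4 affected females were below all 4 control males, as in 9.43% of all tested genes, and for Pidd1 control male 4 overlapped the affected females.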

How the results depend on the processing

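The 21 log2 fold changes followed here were the members' edgeR calls, and Cdkn1a in each comparison. They kept their sign in all 394 alternatives run, where 339 kept the same side of the threshold, 52 lost the call and 3 gained one. Those 3 gains were all of Cdkn1a in control males against control females. A value chosen because it was called can only keep or lose its call, and calls gained by other members are not in this tally. The count of members lower in p53-/- embryos, 5 by edgeR, was 10 with voom and 3 with the replicate block, and 1 to 7 with each library left out (1 without control female 2 or 3, 2 without affected female 3, affected female 4 or control male 3, 3 without affected female 1 or 2). Voom called 5885 of all tested genes in that comparison, against 460 by edgeR, and edgeR called 45 to 2275 with each library left out. Members higher there were 2 with voom and 0 to 1 with a library left out. In control males against control females, 1 member was lower with DESeq2 and 8 with voom, 0 to 1 with a library left out (1 without control female 2), and higher members stayed at 0 to 0. Over all tested genes edgeR called 21 there, DESeq2 43 and voom 1569, and edgeR 18 to 35 with a library left out. In affected females against control females, 7 to 10 members were lower with a library left out. Higher members there were 5 with voom, 1 with the replicate block, 1 with only the compared groups, and 0 to 2 with a library left out (0 without affected female 3 or control female 3). All genes called there, in either direction, were 4073 by edgeR, 7639 with voom, 2875 with the replicate block and 4885 with only the compared groups. With a library left out they numbered 1663 to 4957. Between affected females and control males, members lower were 7 with voom and 7 without control female 1 and control male 4, and 1 to 6 with a library left out (1 without affected female 3, affected female 4, control male 1 or control male 2; 5 without control female 1; 6 without control male 4). Members higher were 5 with voom, 1 with the replicate block, 1 with only the compared groups, 6 without control female 1 and control male 4, and 0 to 5 with a library left out (5 without control male 4, 2 without control female 1). All genes called in that comparison were 2940 by edgeR, 6397 with voom and 6014 without control female 1 and control male 4. With a library left out they ran from 361 without affected female 3 to 5140 without control male 4. The cause of these shifts was not tested. No pairing by replicate number was seen: same-numbered samples correlated at -0.14 to 0.18 over 10 pairs, 3 of them over 0.1. Differently numbered samples of different groups correlated at -0.26 to 0.21. So few correlations cannot decide whether the numbers pair the samples. The replicate block ended the call of Plk3 and Psrc1 in p53-/- embryos and of Btg2 and Rap2b in affected females against control females. RLE scaling moved the median of all genes by under 0.1 on the log2 scale.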
